A study of Mus musculus with 12 samples.

Results

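The 9 genes described here are tied to the epithelial to mesenchymal transition and were followed in mouse embryonic stem cells with and without a knockdown of Set. They are 6 transcription factors (Snai1, Snai2, Zeb1, Zeb2, Twist1 and Twist2), 2 cadherins (Cdh1 and Cdh11) and the filament gene Vim. They were picked by gene symbol, with earlier results of these data known, out of 19938 genes with a probe set of their own on the array. Each is read by its 1 probe set that the platform annotation gives to that gene alone.

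R1 embryonic stem cells carried a scrambled control or a knockdown of Set, which encodes a nuclear histone chaperone that inhibits histone acetylation and protein phosphatase activity. The knockdown exists as 2 lines, KD1 and KD2, and the labels call knockdown and control cells clones, so each of the 3 lines stands for itself. Growing cells (ESC) were kept in 15% serum with 1000 U/ml of leukemia inhibitory factor (LIF). Differentiating cells (RA) had 4 days of 1 µM retinoic acid in 10% serum without LIF, and so the 2 states differ in retinoic acid, serum and LIF together. Each of the 6 groups (ESC Scrambled, ESC KD1, ESC KD2, RA Scrambled, RA KD1 and RA KD2) has 2 arrays labelled as biological replicates, and the labels do not say whether they are separate cultures. P-values here thus rest on differences between arrays that share a line, which may be technical.

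In an epithelial to mesenchymal transition, cells loosen their contacts, lose the adhesion protein E-cadherin and gain motility. Snail, Zeb and Twist factors are its classical drivers: Snail and Zeb proteins bind E-box sequences, among them those of the E-cadherin gene Cdh1, and repress it, while microRNAs of the miR-200 family hold Zeb messages down. In the embryo the same factors act at gastrulation, in the neural crest and in early mesoderm and endoderm, and embryonic stem cells, which express E-cadherin, pass through a like change of adhesion as they differentiate.

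Values are log2 signals, where a step of 1 is a doubling, and the middle value over all probe sets and arrays was 7.22. Array medians ran from 7.17 to 7.24. Set, by probe set 10470893, which the annotation shares with BC085271, read 12.71 to 12.93 in ESC Scrambled, 11.94 to 12.13 in ESC KD1 and 11.87 to 12.15 in ESC KD2. In RA it read 12.27 to 12.29 in scrambled cells, 11.16 to 11.28 in KD1 and 11.70 to 11.99 in KD2, so by this probe set every knockdown array was under both scrambled arrays of its labelled state. Probe sets 10470905 and 10470907, given to Set alone, differed from it in RA. They averaged 6.57 and 5.96 in scrambled, 6.66 and 6.20 in KD1 and 7.35 and 6.63 in KD2 cells. In ESC they averaged 8.60 and 7.13 in scrambled, 8.01 and 6.81 in KD1 and 7.72 and 6.68 in KD2 cells. The KD2 averages mix unlike arrays, since each KD2 replicate 2 resembled the other state, as described below. Replicates 1 and 2 of RA KD2 read 6.79 and 7.91 on 10470905, and 6.20 and 7.05 on 10470907. Those of ESC KD2 read 8.54 and 6.91, and 7.15 and 6.22. ESC KD2 replicate 1 was above ESC Scrambled replicate 2 on both probe sets (8.54 against 8.39, and 7.15 against 6.90). Probe set 10587486, also shared with BC085271, averaged 12.14 in scrambled, 11.19 in KD1 and 11.73 in KD2 cells in RA. In ESC it averaged 12.80, 12.05 and 11.90. By it, too, every knockdown array was under both scrambled arrays of its labelled state. The knockdown in RA therefore rests on the probe sets shared with BC085271. Both arrays numbered 2 of the KD2 line resembled the other state. The one labelled ESC KD2 replicate 2 had a mean correlation over genes of 0.989 with arrays labelled RA and 0.967 with those labelled ESC, while its counterpart labelled RA KD2 replicate 2 had 0.967 with RA and 0.989 with ESC. The mean level of 12 stem cell markers was 12.06 to 12.41 in the other ESC arrays and 8.62 to 9.71 in the other RA arrays, against 9.87 for ESC KD2 replicate 2 and 12.28 for RA KD2 replicate 2. Scrambled and KD1 cells are therefore compared in a limma fit of their own 8 arrays, and KD2 is described both with all 12 arrays and without these 2. In these bulk samples, fewer cells of a type and less RNA per cell cannot be told apart.

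**Figure D1:**
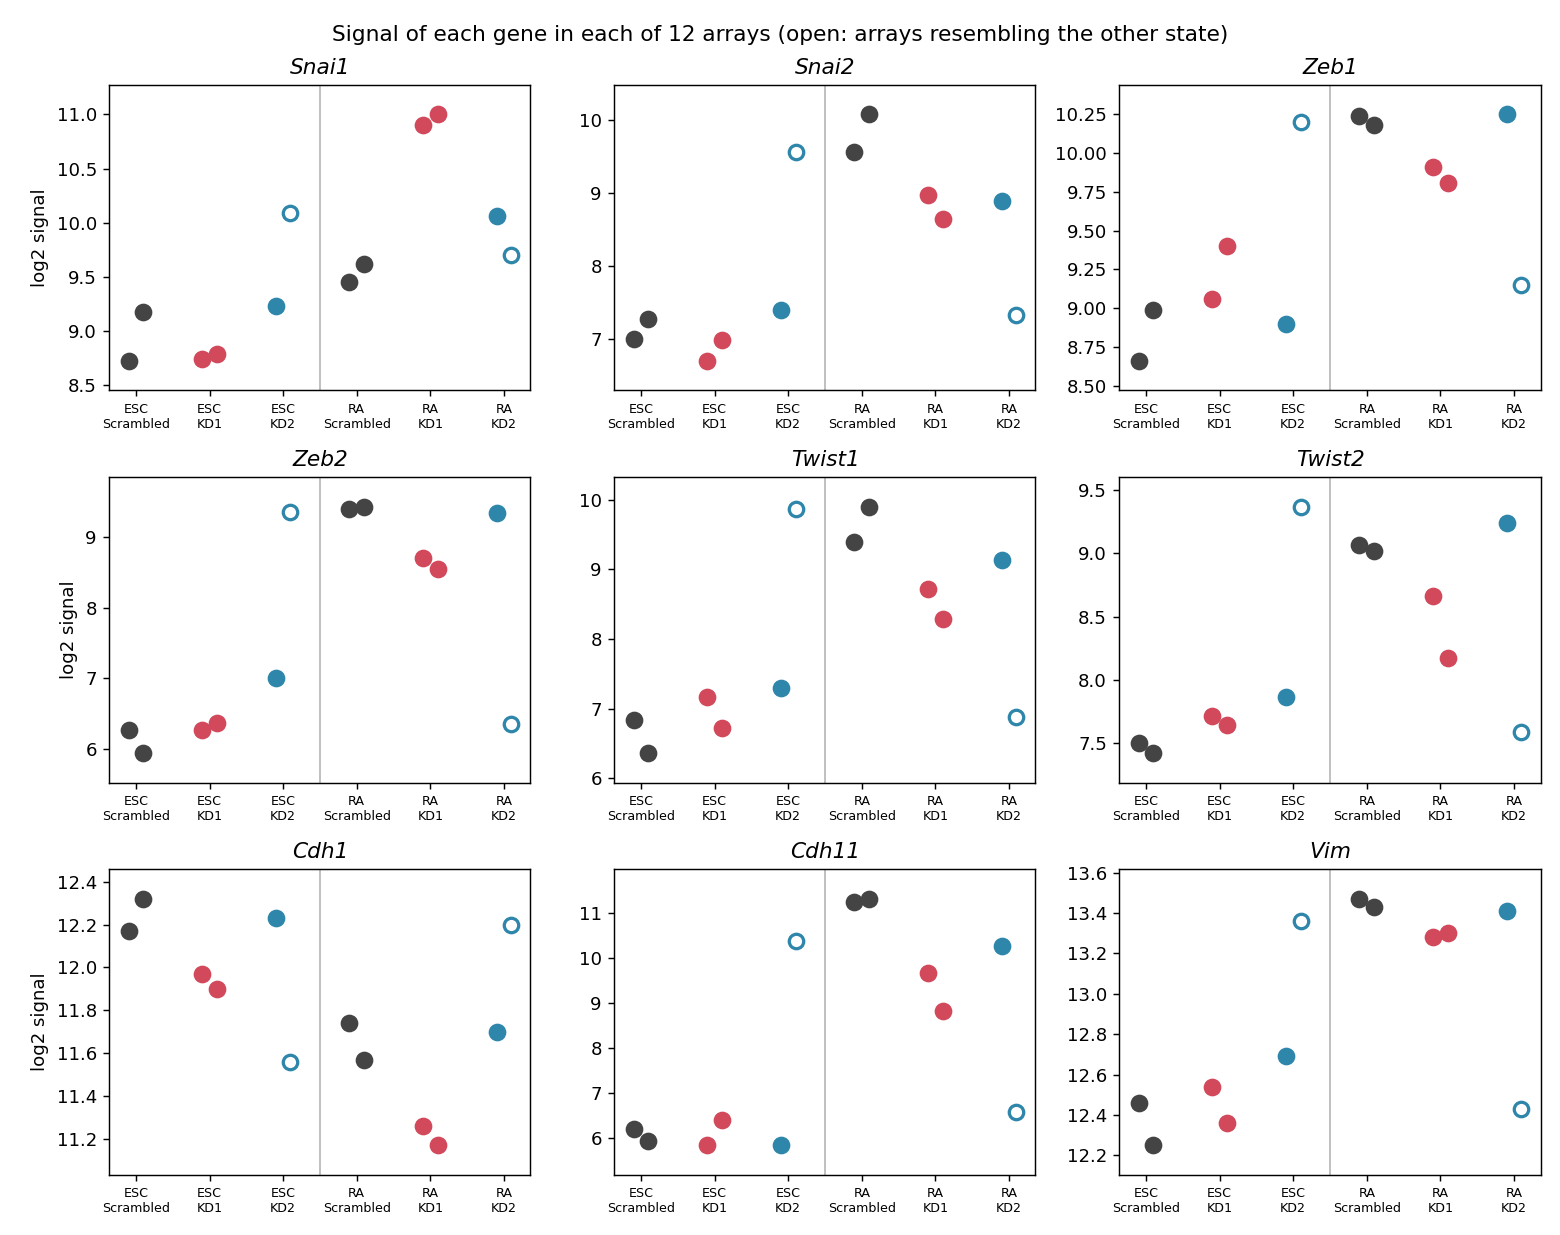
Log2 signal (vertical axis) of each of the 9 genes in each of the 12 arrays, grouped by labelled state and line, 1 circle per array; open circles mark replicate 2 of ESC KD2 and of RA KD2. For Cdh11 the scrambled arrays go from 6.20 and 5.93 in ESC to 11.26 and 11.32 in RA, and for most genes the open circles sit with the opposite state.

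With RA, scrambled cells had more of all 6 transcription factors, Cdh11 and Vim, and less Cdh1. The rises ran from 1.5-fold for Snai1 to 37.3-fold for Cdh11, the latter from ESC signals under the middle of the array, where no test of signal over background was made, while the fall of Cdh1, to 66.4% of its ESC signal, was modest. By limma at an adjusted p below 0.05, 8 of the 9 genes were called higher and 1 lower. Of all 19938 genes, 21.7% were called higher and 20.8% lower in this comparison. The median change of the 9 genes was 1.59 on the log2 scale, against -0.04 for all genes. KD1 cells gave the same split of calls, 8 higher and 1 lower, where 20.3% of all genes were higher and 20.8% lower, with medians of 1.56 and -0.08. A fit to all 12 arrays, whose spread includes the mismatched KD2 arrays, called 5 of the 9 higher in scrambled cells, with Cdh1 not called (adjusted p = 0.0877), and 1 of the 9, Snai1, in KD1 cells. Genes of the stem cell state moved the other way: all 12 markers fell in scrambled cells, among them Tcl1 (-4.72), Nr0b1 (-4.17), Tdgf1 (-3.98) and Esrrb (-3.91).

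Snai1 and Snai2 encode the zinc finger repressors Snail and Slug, and they did not move alike. Snai1 read 8.72 and 9.17 in ESC Scrambled and 9.45 and 9.62 in RA Scrambled. The 2 states did not overlap but lay close, and the rise was 0.59 (SE 0.16, adjusted p = 0.0149). In KD1 cells Snai1 read 8.74 and 8.78 in ESC and 10.90 and 11.00 in RA, the highest values of the gene in the series, a rise of 2.19 (SE 0.16, adjusted p = 9.79e-06) or 4.56-fold. The small rise in scrambled cells was not called without ESC Scrambled replicate 1 (0.36, adjusted p = 0.0781), without RA Scrambled replicate 2 (0.50, adjusted p = 0.0943) or in the fit to all 12 arrays (adjusted p = 0.159). The order of the RA groups was KD1 highest, then the array RA KD2 replicate 1 at 10.06, then scrambled.

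Snai1 lies on chromosome 2 at 167538195 to 167542814 (GRCm38.p6). Its promoter is shown because Snail and Zeb factors bind the E-box letters CAGGTG, and of the 5 genes with a promoter window in the RefSeq table, 1, Snai1, has these letters in it. Windows of 300 bases, from 250 before to 50 after the start site, were searched on both strands. Among all 32851 windows of this length, 6640 (20.2%) hold the letters, and 8 windows belong to Snai1, Zeb2, Twist1, Twist2 and Vim. In the Snai1 window (chr2:167537945-167538244, plus strand, GRCm38.p6) the match, in capitals, begins at offset -126 from the start site. A match of letters is a description and not a shown binding site.
Snai1 promoter: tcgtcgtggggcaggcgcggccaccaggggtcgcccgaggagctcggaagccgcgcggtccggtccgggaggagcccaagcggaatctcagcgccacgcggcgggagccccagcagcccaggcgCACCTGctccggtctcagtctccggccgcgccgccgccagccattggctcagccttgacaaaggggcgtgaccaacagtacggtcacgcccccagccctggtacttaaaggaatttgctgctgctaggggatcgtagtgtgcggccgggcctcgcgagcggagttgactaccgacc

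Snai2 (chromosome 16, 14705852 to 14709395) read 7.0 and 7.28 in ESC Scrambled and 9.56 and 10.08 in RA Scrambled. The states were far apart, and the rise to RA was 2.68 (SE 0.20, adjusted p = 1.22e-05) or 6.42-fold. In KD1 cells it read 6.70 and 6.99 in ESC and 8.97 and 8.64 in RA, a rise of 1.96 (SE 0.20, adjusted p = 8.34e-05). Both scrambled RA arrays were above both KD1 RA arrays, the reverse of the order of Snai1.

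Zeb1 and Zeb2 encode zinc finger homeodomain repressors of Cdh1 and of other epithelial genes. Zeb2 (chromosome 2, 44983512 to 45117442) was low in ESC, at 6.26 and 5.94 in scrambled and 6.26 and 6.36 in KD1 cells. In RA it read 9.40 and 9.43 in scrambled and 8.70 and 8.54 in KD1 cells. The rise was 3.32 (SE 0.14, adjusted p = 6.04e-07), 9.96-fold, in scrambled cells and 2.31 (SE 0.14, adjusted p = 3.31e-06), 4.96-fold, in KD1 cells. The RA replicates of a line were close together and the lines did not overlap. Zeb1 (chromosome 18, 5591327 to 5775468) read 8.66 and 8.99 in ESC Scrambled and 9.06 and 9.40 in ESC KD1. Its RA values of 10.24 and 10.18 in scrambled and 9.91 and 9.81 in KD1 cells gave rises of 1.39 (SE 0.16, adjusted p = 0.000118) and 0.63 (SE 0.16, adjusted p = 0.0116). The KD1 rise of Zeb1 was not called without ESC KD1 replicate 1 (0.45, adjusted p = 0.0878) or without RA KD1 replicate 1 (0.57, adjusted p = 0.0851).

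Twist1 and Twist2 encode basic helix-loop-helix factors of early mesenchyme. Twist1 (chromosome 12, 33957671 to 33959831) read 6.83 and 6.36 in ESC Scrambled and 9.39 and 9.90 in RA Scrambled, a rise of 3.05 (SE 0.24, adjusted p = 1.58e-05) or 8.27-fold. In KD1 cells it went from 7.17 and 6.72 to 8.71 and 8.29, a rise of 1.56 (SE 0.24, adjusted p = 0.000868) or 2.94-fold. Its replicates lay farther apart than those of Zeb2, though the states did not overlap. Twist2 (chromosome 1, 91801461 to 91848034) read 7.50 and 7.42 in ESC Scrambled, 9.07 and 9.02 in RA Scrambled, 7.71 and 7.64 in ESC KD1 and 8.66 and 8.17 in RA KD1. The rises were 1.59 (SE 0.16, adjusted p = 6.15e-05) in scrambled and 0.74 (SE 0.16, adjusted p = 0.00547) in KD1 cells.

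Cdh1 and Cdh11 encode the epithelial E-cadherin and the mesenchymal OB-cadherin, calcium-dependent adhesion proteins that bind like to like. Cdh11 (chromosome 8, 102632095 to 102785493) read 6.20 and 5.93 in ESC Scrambled and 11.26 and 11.32 in RA Scrambled. The measured rise was 5.22 (SE 0.27, adjusted p = 1.66e-06). Its size depends on the low ESC signals, which were not tested against background. In KD1 cells Cdh11 went from 5.84 and 6.40 to 9.67 and 8.83, a rise of 3.13 (SE 0.27, adjusted p = 2.57e-05) or 8.74-fold. These values come from probe set 10581013. Probe sets 10457223, 10577395 and 10577412 also carry Cdh11 among several symbols and are no part of the fit; there the RA minus ESC difference in scrambled cells was only 0.35, 0.29 and 0.38, with no test, so the large change is that of the probe set given to Cdh11 alone.

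Cdh1 (chromosome 8, 106603350 to 106670247) was strong in every array. It read 12.17 and 12.32 in ESC Scrambled and 11.97 and 11.90 in ESC KD1. In RA it read 11.74 and 11.57 in scrambled and 11.26 and 11.17 in KD1 cells. These 4 groups of 2 arrays did not overlap, but limma did not call the ESC difference between lines (-0.31, adjusted p = 0.140). With RA, Cdh1 fell by 0.59 (SE 0.09, adjusted p = 0.000658) in scrambled and by 0.72 (SE 0.09, adjusted p = 0.000233) in KD1 cells. Its lowest array of all 12, at 11.17, was 1 of the RA KD1 pair.

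Vim (chromosome 2, 13574311 to 13582826), which encodes the filament protein vimentin of mesenchymal cells, was strong in ESC too, at 12.46 and 12.25 in scrambled and 12.54 and 12.36 in KD1 cells. In RA it read 13.47 and 13.43 in scrambled and 13.28 and 13.30 in KD1 cells. The rises were 1.10 (SE 0.08, adjusted p = 9.42e-06), 2.15-fold, and 0.84 (SE 0.08, adjusted p = 4.73e-05), 1.79-fold. The lines overlapped in ESC and were apart by little in RA.

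**Figure D2:**
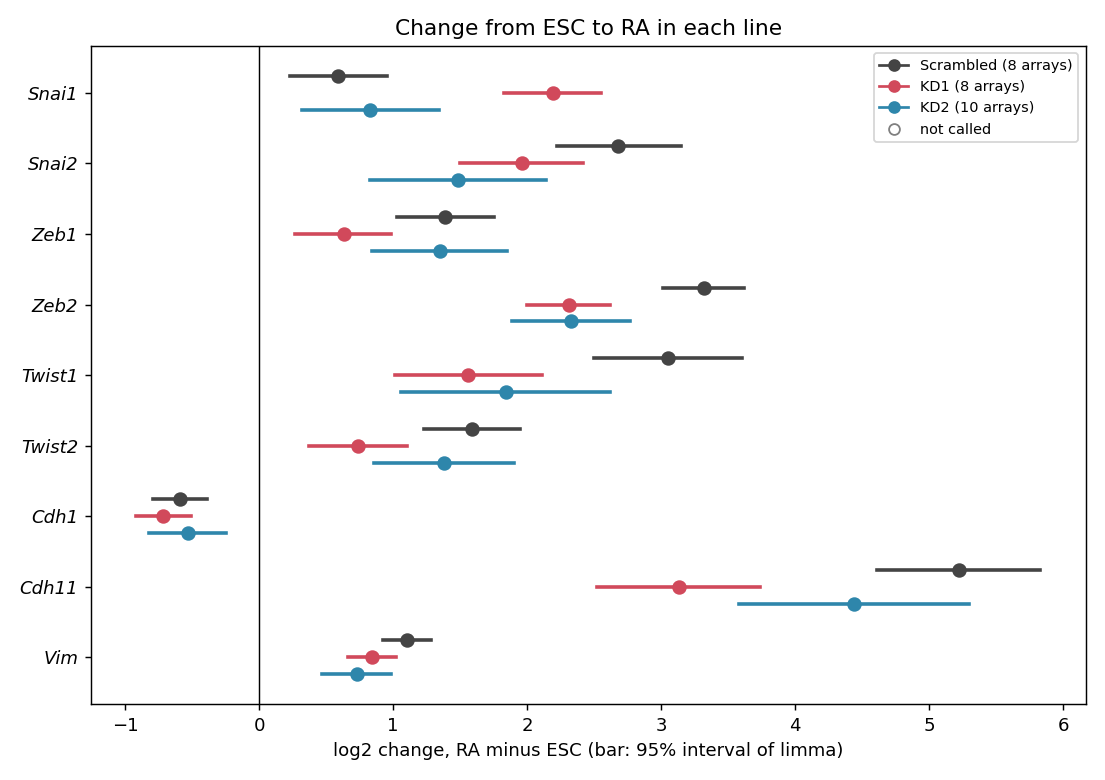
Log2 change from ESC to RA (horizontal axis) of each gene in scrambled cells, KD1 cells (both from the fit to 8 arrays) and KD2 cells (fit to 10 arrays, where KD2 has 1 array per state); points are estimates, bars are 95% intervals of limma, and filled points are called. All points are filled; Snai1 has its largest change in KD1 (2.19), while Cdh11 changes more in scrambled cells (5.22) than in KD1 (3.13).

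In growing ESC, the KD1 line did not differ from scrambled cells by the test in any of the 9 genes. Limma called 0 of 9 in either direction, with 2 at an unadjusted p under 0.05, where 0.848% of all genes were called higher and 1.09% lower. Those 2 were Zeb1, at a difference of 0.41 (95% interval 0.05 to 0.77, adjusted p = 0.257), and Cdh1, at -0.31 (95% interval -0.51 to -0.11, adjusted p = 0.140). Both Cdh1 arrays of KD1 were under both scrambled ones and both Zeb1 arrays were above, a low bar with 2 arrays per group. With the replicate number as a block within each state, both were called (Zeb1 adjusted p = 0.0171, Cdh1 adjusted p = 0.0186). For the other 7 genes the differences lay between -0.29 for Snai2 and 0.35 for Twist1.

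In RA, KD1 cells had more Snai1 and less of most other genes of the set than scrambled cells. Snai1 was 2.67-fold higher, at 1.41 (SE 0.16, adjusted p = 0.000675). Cdh11 was 2.04 lower (difference -2.04, SE 0.27, adjusted p = 0.00157), at 24.3% of the scrambled signal. Snai2 (-1.02, SE 0.20, adjusted p = 0.0127), Zeb2 (-0.79, SE 0.14, adjusted p = 0.00604), Twist1 (-1.14, SE 0.24, adjusted p = 0.0163), Twist2 (-0.63, SE 0.16, adjusted p = 0.0343) and Cdh1 (-0.44, SE 0.09, adjusted p = 0.0133) were lower as well. The epithelial cadherin and the mesenchymal cadherin were thus both lower in KD1 in RA. In ESC the KD1 difference was already -0.31 for Cdh1 but 0.05 for Cdh11, neither called. None of the 7 called genes had overlapping groups in RA, but with 2 arrays per group that is a low bar. The share of all genes without overlap was not counted, so the lack of overlap adds no support to these differences.

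By this test 1 of the 9 genes was called higher and 6 lower, where 5.39% of all genes were higher and 6.69% lower; the median was -0.63 for the 9 genes and -0.01 for all. Zeb1 (-0.36, 95% interval -0.71 to -0.00, adjusted p = 0.208) and Vim (-0.16, 95% interval -0.35 to 0.02, adjusted p = 0.254) were not called. With the replicate block within each state they were (Zeb1 adjusted p = 0.0143, Vim adjusted p = 0.0214), which made 8 lower. Snai1 was called with any array left out and also in the fit to all 12 arrays (adjusted p = 0.0410), which called none of the 6 lower genes (adjusted p from 0.497 to 0.849). Without RA Scrambled replicate 2, 3 genes were called lower (Zeb2, Cdh1 and Cdh11), and without RA KD1 replicate 2 only Cdh11 was. Twist2 was not called with each array centred on its median (adjusted p = 0.0535). Cdh1 and Twist2 were not called without RA Scrambled replicate 1 (adjusted p = 0.101 and 0.168), nor Cdh1 without RA KD1 replicate 1 (adjusted p = 0.0566).

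**Figure D3:**
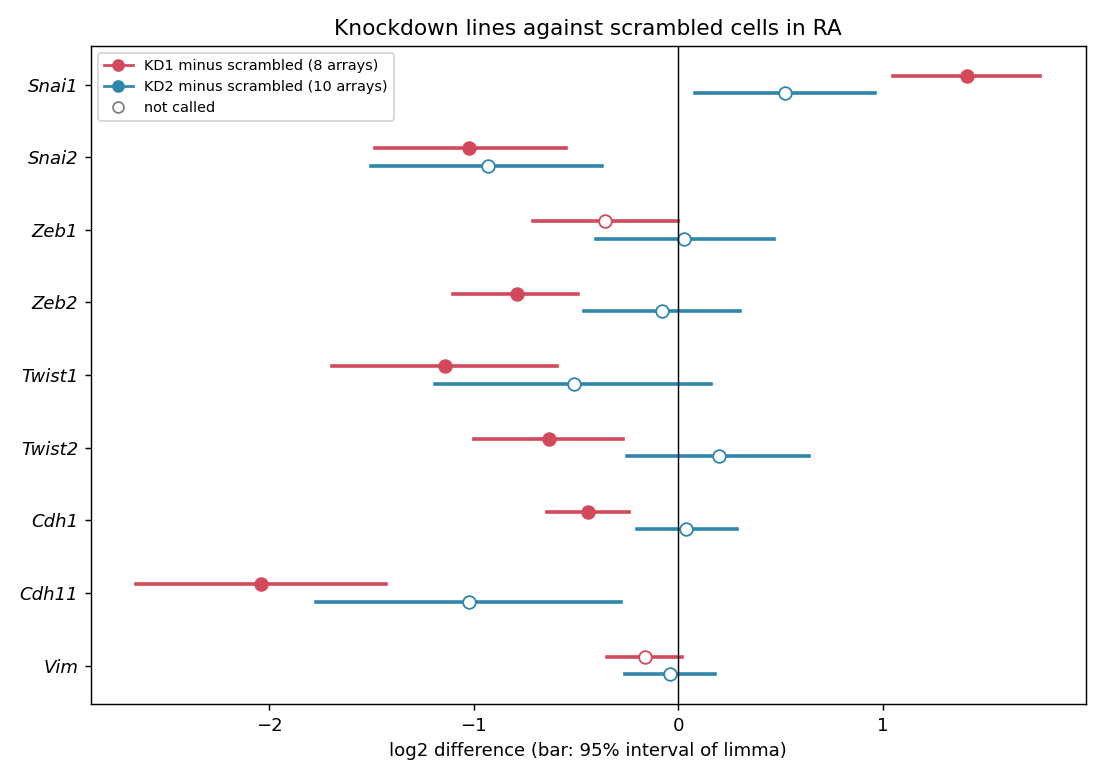
Log2 difference from scrambled cells in RA (horizontal axis) of each gene in KD1 (fit to 8 arrays) and KD2 (fit to 10 arrays, 1 KD2 array); points are estimates, bars are 95% intervals of limma, filled points are called and open points are not. In KD1, Snai1 lies at 1.41 and Cdh11 at -2.04; in KD2 no point is filled, with Snai1 at 0.52 and Cdh11 at -1.02.

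Markers of other cell types moved between the same RA arrays. There 5.39% of all genes were called higher in KD1 and 6.69% lower. Of 14 genes of extraembryonic and visceral endoderm, the yolk sac lineage that embryonic stem cells can form, 12 were called higher in KD1 than in scrambled cells by limma and none lower (13 of 14 at an unadjusted p under 0.05). Cubn, a scavenger receptor of visceral endoderm, was higher by 4.26 (SE 0.13), the laminin gene Lama1 by 3.71 (SE 0.11), and the endoderm factors Sox7 and Gata4 by 3.41 (SE 0.15) and 3.0 (SE 0.14). The mean level of these 14 genes was 7.73 to 7.75 in ESC Scrambled, 8.14 to 8.17 in ESC KD1, 9.02 to 9.19 in RA Scrambled and 10.92 to 10.98 in RA KD1. Of 12 fibroblast and mesoderm markers, a list that holds Twist2, 6 were lower and 1 higher in KD1, and their mean level was 8.68 to 8.79 in RA Scrambled and 8.12 to 8.38 in RA KD1. Among them Tbx18 (-2.28), Foxc2 (-1.99) and Postn (-1.73) were lower and Pdgfra (2.86) was higher. The 6 lower became 4 without either RA Scrambled array, 3 without RA KD1 replicate 2 and 0 in the fit to all 12 arrays. None of 12 neural crest and neural tube markers was called by limma, with 1 at an unadjusted p under 0.05; the most changed was Nes at -0.50, and 2 were called lower with the replicate block within each state. Of the 12 stem cell markers, Klf4 (1.5) and Tcl1 (1.15) were higher and Nanog (-1.35) and Fgf4 (-0.82) lower. These counts, 2 and 2, rested on single arrays: leaving out RA Scrambled replicate 1 gave 1 higher and 5 lower, and leaving out its partner, replicate 2, gave 5 higher and 1 lower. Without RA KD1 replicate 1 they were 1 and 3, without RA KD1 replicate 2 they were 1 and 0, and the fit to all 12 arrays called 0 of the 12. The part of these markers in the differences of the 9 genes was not tested.

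The response to RA differed between KD1 and scrambled cells for 4 of the 9 genes, by the interaction term of the same fit. This comparison shares its RA arrays with the one between lines above. Snai1 rose more in KD1, by 1.60 (SE 0.22, adjusted p = 0.00529). Cdh11 rose less, with a difference of responses of -2.09 (SE 0.38, adjusted p = 0.0167), as did Zeb2 (-1.01, SE 0.19, adjusted p = 0.0209) and Twist1 (-1.49, SE 0.34, adjusted p = 0.0429). Over all genes 2.53% were called higher and 2.29% lower, and the median was -0.77 for the 9 genes and -0.03 for all. Snai2 (-0.72, adjusted p = 0.235), Zeb1 (-0.77, adjusted p = 0.101), Twist2 (-0.85, adjusted p = 0.0755), Vim (-0.26, adjusted p = 0.271) and Cdh1 (-0.13, 95% interval -0.41 to 0.16, adjusted p = 0.686) were not called.

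With the replicate block within each state, Zeb1 (adjusted p = 0.00302), Twist2 (adjusted p = 0.0102) and Vim (adjusted p = 0.0196) were also called, which made 6 lower. Snai1 was called with any of the 8 arrays left out, but the lower calls were fragile. None remained without RA Scrambled replicate 1, RA Scrambled replicate 2 or RA KD1 replicate 2, and 1, Cdh11, remained without ESC KD1 replicate 1. Zeb2 was lost without ESC KD1 replicate 2 (adjusted p = 0.0721) or RA KD1 replicate 1 (adjusted p = 0.0565), and Twist1 without ESC Scrambled replicate 2 (adjusted p = 0.0786) or RA KD1 replicate 1 (adjusted p = 0.0760). Twist1 was also lost without the intensity trend (adjusted p = 0.0513) and after a further quantile normalization (adjusted p = 0.0517), under which Zeb1 was called (adjusted p = 0.0497). In the fit to all 12 arrays no interaction was called, Snai1 included (adjusted p = 0.209).

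In the KD2 line the arrays as labelled gave no state difference. Cdh11 read 5.83 in ESC KD2 replicate 1 and 10.38 in the one labelled replicate 2, then 10.27 in RA KD2 replicate 1 and 6.57 in its labelled partner, replicate 2. Zeb2 read 7.01, 9.35, 9.34 and 6.35 in the same order, and Cdh1 read 12.23, 11.56, 11.70 and 12.20. For these genes each replicate 2 array was close to replicate 1 of the other state. Snai1 read 9.23, 10.09, 10.06 and 9.70, so that the last of these was still above every array labelled ESC but the 10.09 of ESC KD2 replicate 2. With all 12 arrays limma called 0 of 9 genes for RA against ESC in KD2 (0 at an unadjusted p under 0.05), 0 for KD2 against scrambled in ESC (3 unadjusted) and in RA (1 unadjusted), and 0 for KD1 against KD2 in RA (2 unadjusted). The share of all genes called higher and lower was 0% and 0% in the first of these, 0.0100% and 0.0752% in the second, 0.0251% and 0.246% in the third and 1.18% and 0.160% in the last.

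Without both displaced arrays KD2 is left with a single array in each state, whose spread is taken from the remaining groups. On the remaining 10 arrays all 6 factors, Cdh11 and Vim were higher in RA and Cdh1 was lower in KD2, 8 calls higher and 1 lower, where 11.0% of all genes were higher and 9.46% lower. Cdh11 rose by 4.44 (SE 0.38, adjusted p = 0.000206), Zeb2 by 2.33 (SE 0.19, adjusted p = 0.000169), Twist1 by 1.84 (SE 0.34, adjusted p = 0.00639) and Snai2 by 1.48 (SE 0.29, adjusted p = 0.00772). Twist2 (1.38, adjusted p = 0.00361), Zeb1 (1.35, adjusted p = 0.00363), Snai1 (0.83, adjusted p = 0.0309) and Vim (0.73, adjusted p = 0.00274) also rose, and Cdh1 fell by 0.53 (SE 0.13, adjusted p = 0.0182). The Snai1 rise was not called without RA KD1 replicate 1 (adjusted p = 0.0622) or RA KD1 replicate 2 (adjusted p = 0.0624). The 2 arrays were left out because they resembled the other state, so the directions on 10 arrays follow in part from that choice and give no separate support to those of the other lines. With all 12 arrays the KD2 changes were 0.31 for Cdh11, 0.22 for Snai1, 0.15 for Zeb1, 0.06 for Cdh1, -0.10 for Vim, -0.20 for Twist2, -0.33 for Zeb2, -0.38 for Snai2 and -0.57 for Twist1, none called.

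Against scrambled cells in ESC, 1 of the 9 genes was called on 10 arrays: Zeb2, at 7.01 in KD2, was higher by 0.91 (SE 0.17, adjusted p = 0.0472) against 2.08 (SE 0.92, not called) on 12 arrays, where 0.717% of all genes were higher and 0.271% lower. It was also called with the replicate block within each state (adjusted p = 0.0208). It was not called without ESC Scrambled replicate 2 (0.75, adjusted p = 0.0915), nor without any 1 array of ESC KD1, RA Scrambled or RA KD1 (adjusted p from 0.0646 to 0.111). Against scrambled cells in RA, limma called 0 of 9 on 10 arrays (3 at an unadjusted p under 0.05), where 0.326% of all genes were higher and 0.637% lower. The 3 were Snai1 (0.52, 95% interval 0.08 to 0.96, adjusted p = 0.343), Snai2 (-0.93, 95% interval -1.5 to -0.37, adjusted p = 0.157) and Cdh11 (-1.02, 95% interval -1.77 to -0.28, adjusted p = 0.249). On 12 arrays these 3 differences were 0.34, -1.71 and -2.87. With the replicate block, Cdh11 was called on 10 arrays (-1.22, adjusted p = 0.0472). Zeb2 (-0.08), Cdh1 (0.04), Vim (-0.04) and Zeb1 (0.03) of KD2 were close to scrambled cells in RA on 10 arrays, but at -1.57, 0.30, -0.53 and -0.51 on 12.

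Between the knockdown lines in RA, on 10 arrays, Snai1 was higher in KD1 than in KD2 by 0.89 (SE 0.19, adjusted p = 0.0407) and Cdh1 was lower by 0.48 (difference -0.48, SE 0.11, adjusted p = 0.0466). On 12 arrays these differences were 1.07 and -0.73, neither called. Of all genes, 2.41% were higher and 1.31% lower. Zeb2 (-0.72, adjusted p = 0.0539), Twist2 (-0.83, adjusted p = 0.0584), Cdh11 (-1.02, adjusted p = 0.155), Twist1 (-0.63, adjusted p = 0.357), Zeb1 (-0.39, adjusted p = 0.382), Vim (-0.12, adjusted p = 0.637) and Snai2 (-0.08, 95% interval -0.65 to 0.48, adjusted p = 0.935) were not called. With the replicate block within each state Zeb2 (-0.68, adjusted p = 0.0315) and Twist2 (-0.70, adjusted p = 0.0261) were. The Snai1 call was lost when an array of ESC KD1, RA Scrambled or RA KD1 was left out, with adjusted p from 0.0603 to 0.254. The Cdh1 call was lost without either ESC KD1 array (adjusted p = 0.0692 and 0.0684) or either RA KD1 array (adjusted p = 0.126 and 0.276). The mean of the endoderm markers in RA KD2 replicate 1 was 9.63, against 10.92 to 10.98 in RA KD1, and 11 of the 14 were called higher in KD1; their part in the difference was not tested.

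Relatives of the 2 cadherins were read from a list of 17 other cadherins. In scrambled cells 7 of 17 rose with RA and none fell by limma (7 at an unadjusted p under 0.05), with a median of 0.26, against 21.7% higher, 20.8% lower and a median of -0.04 over all genes. The fit to all 12 arrays called 0 of the 17. Cdh2, the N-cadherin of neural and mesenchymal cells, rose by 3.79 (SE 0.29) and Cdh6 by 3.50 (SE 0.14), while Cdh8 (1.5) and Cdh24 (1.30) rose less. In RA, KD1 cells had 2 of the 17 higher and 3 lower than scrambled cells: Cdh5, the cadherin of endothelium (1.34), and Cdh6 (0.77) were higher, and Cdh3, the P-cadherin (-1.11), Cdh10 (-0.96) and Cdh8 (-0.95) were lower. Over all genes 5.39% were higher and 6.69% lower. The higher count was 0 without RA KD1 replicate 1 and 1 without RA Scrambled replicate 2 or RA KD1 replicate 2, and the lower count was 1 without RA Scrambled replicate 1 or RA KD1 replicate 2. Cdh2 was not called there (-0.87, SE 0.29, adjusted p = 0.0915). In ESC, Cdh3 was already lower in KD1 (-1.25, SE 0.16, adjusted p = 0.00627) and Cdh4 higher (0.89, SE 0.14, adjusted p = 0.0177). Of 7 catenins, which tie cadherins to the cytoskeleton, 3 rose in scrambled cells: Ctnnd2 (1.59), Ctnnd1 (0.49) and Ctnnb1 (0.36). That count was 2 without RA Scrambled replicate 1 and 0 in the fit to all 12 arrays. By limma 0 of 7 catenins differed between KD1 and scrambled cells in RA, with 1 at an unadjusted p under 0.05; the most changed was Ctnnb1 (-0.15, adjusted p = 0.171), and 1 was called lower with the replicate block.

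Epithelial genes that Snail and Zeb factors are known to repress were split. Of 29 measured of 30, 9 rose and 9 fell from ESC to RA in scrambled cells, with a median of -0.14, beside 21.7% higher and 20.8% lower of all genes and their median of -0.04. The 9 lower were 6 without RA Scrambled replicate 1. The trafficking gene Rab25 (-2.66), the splicing factor Esrp1 (-2.31), the epithelial factor Grhl2 (-2.07) and the adhesion gene Epcam (-1.34) fell, whereas the keratins Krt18 (1.98), Krt8 (1.75) and Krt19 (1.65) and the desmosome gene Dsp (1.58) rose. In RA, 1 of 29 was higher and 3 were lower in KD1 than in scrambled cells, with a median of 0.03, where 5.39% of all genes were higher and 6.69% lower: Elf3 (1.53) was higher, and the claudin Cldn4 (-1.25), Grhl2 (-0.74) and Spint1 (-0.44) were lower. With the replicate block 7 were higher and 5 lower. The lower count was 1 without RA KD1 replicate 1 and 0 without RA Scrambled replicate 1 or RA KD1 replicate 2.

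Mesenchymal genes rose with RA. Of 24 measured of 25, 20 rose and 2 fell in scrambled cells, with a median of 1.31, where 21.7% of all genes were higher and 20.8% lower; the contractile genes Acta2 (2.91), Tagln (2.87) and Cnn1 (2.72) and the secreted Fstl1 (2.69) rose most, and Thy1 (-1.37) and Ddr2 (-1.20) fell. The list was split between lines in RA, with 4 higher and 6 lower in KD1 and a median of -0.17, where 5.39% of all genes were higher and 6.69% lower. The growth factor receptor gene Pdgfra (2.86), Timp3 (0.84), Itga5 (0.59) and Sparc (0.38) were higher, and the matrix genes Mmp2 (-1.85), Postn (-1.73) and Col3a1 (-0.95) and the collagen receptor gene Ddr2 (-1.10) were among the lower. Sparc is also in the endoderm list. Col1a1, Col3a1, Postn, Pdgfra, Pdgfrb and Thy1 are also in the fibroblast and mesoderm list, so these lists are not separate observations. Without RA KD1 replicate 2, 1 was higher and 2 were lower. Leaving out RA Scrambled replicate 1 gave 3 higher and 3 lower, while its partner, or RA KD1 replicate 1, left out gave 2 higher and 5 lower. Fn1, the fibronectin gene often used as a mesenchymal marker, was not called in scrambled cells (-0.12, SE 0.15, adjusted p = 0.577) or between lines in RA (-0.11, SE 0.15, adjusted p = 0.725).

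Inducers, partners and inhibitors of the Snail, Zeb and Twist factors moved largely upward with RA. The list, named inducers and partners here, also holds inhibitors such as Id1, Id2, Id3 and Smad7. Its counts are therefore not counts of activators alone. Of 32, 23 rose and 4 fell in scrambled cells, with a median of 1.02, where 21.7% of all genes were higher and 20.8% lower. The forkhead gene Foxc2 (4.53), the ligand genes Tgfb2 (4.35) and Tgfb3 (3.35) and the neural crest and cartilage factor Sox9 (3.55) rose most. The third Snail gene Snai3 (-1.06), the corepressor gene Ctbp2 (-0.99), Tgfb1 (-0.70) and the deacetylase gene Hdac1 (-0.26) fell. In RA, limma called none of the 32 higher in KD1 than in scrambled cells and 9 lower (20 at an unadjusted p under 0.05), with a median of -0.29, where 6.69% of all genes were lower. With the replicate block, or without either ESC Scrambled array, 2 were higher. Among the 9 were Foxc2 (-1.99), which is also in the fibroblast and mesoderm list, Tgfb3 (-1.46), Lbh (-1.46), Tgfb2 (-0.91) and Hmga2 (-0.91). That lower count ran from 2 without RA KD1 replicate 2 to 12 with an ESC array left out; it was 4 without RA KD1 replicate 1 or RA Scrambled replicate 2, 5 without RA Scrambled replicate 1, 19 with the replicate block within each state and 0 in the fit to all 12 arrays.

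**Figure D4:**
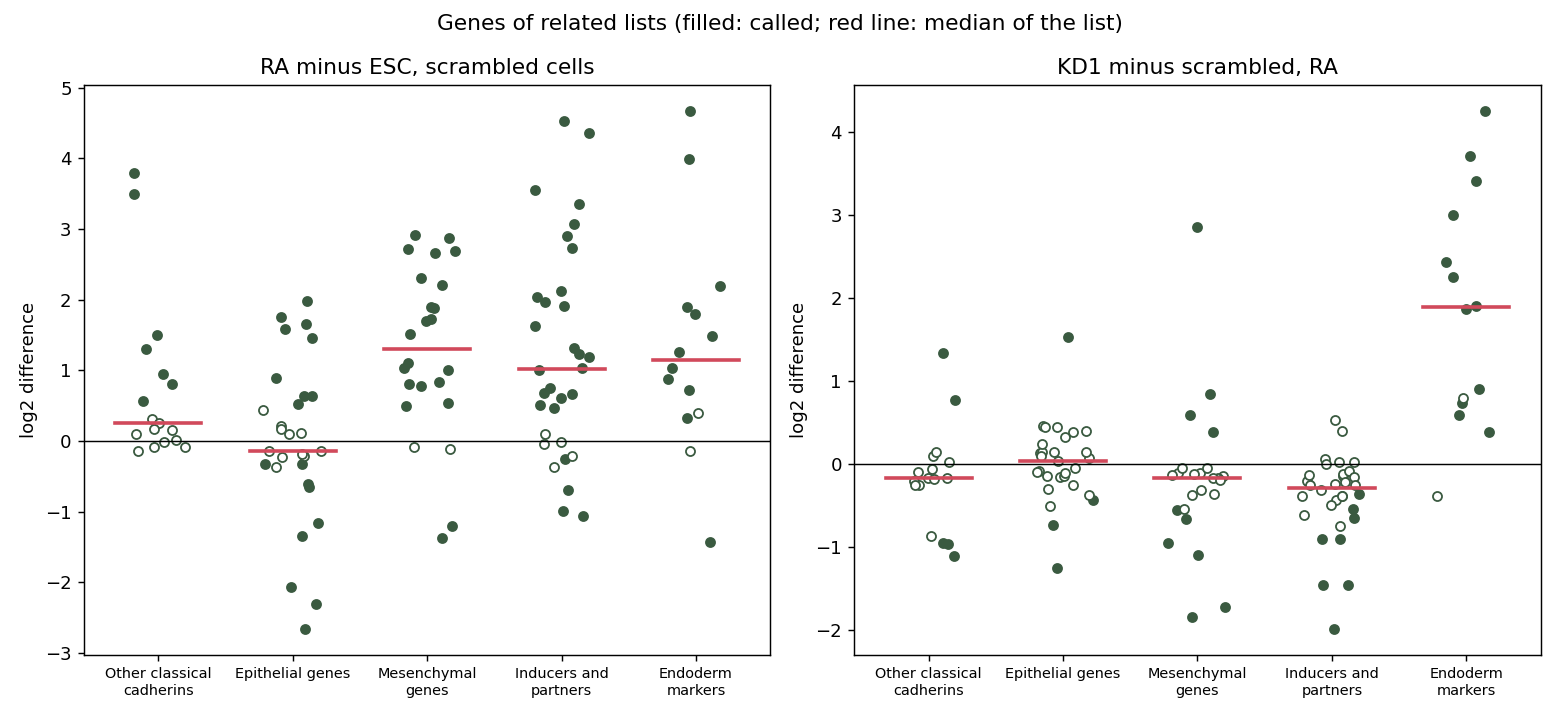
Log2 difference (vertical axis) of each measured gene of 5 lists for RA minus ESC in scrambled cells (left) and KD1 minus scrambled in RA (right), from the fit to 8 arrays; each circle is a gene, filled circles are called, and the red line is the list median. The mesenchymal median is 1.31 on the left and -0.17 on the right, and the endoderm median is 1.15 on the left and 1.89 on the right.

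The fit to all 12 arrays gave fewer calls in these lists. For RA against ESC in scrambled cells it called 7 epithelial genes higher and 0 lower, 9 mesenchymal genes higher and 1 lower, and 11 inducers and partners higher. For KD1 against scrambled cells in RA it called 1 cadherin lower, 1 epithelial gene higher, 1 mesenchymal gene lower and 6 endoderm markers higher. In the 8 arrays the endoderm count for KD1 in RA ran from 9 to 13 with an array left out.

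MicroRNAs of the miR-200 family are the best known brake on Zeb1 and Zeb2, and their probe sets gave little to read. The mature strands that pair with the Zeb messages are shown with the seed, bases 2 to 8, in capitals, because the seed sorts them into 2 groups: miR-200a and miR-141 share one, and miR-200b and miR-200c the other. Sequences are from RefSeq (GRCm38.p6).
mmu-miR-200a-3p: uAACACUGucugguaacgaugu
mmu-miR-141-3p: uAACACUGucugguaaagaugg
mmu-miR-200b-3p: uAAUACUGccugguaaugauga
mmu-miR-200c-3p: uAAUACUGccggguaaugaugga
The array reads the hairpin genes and not the mature strands. Mir200a lay between 6.41 and 6.82 over all 12 arrays, Mir141 between 4.47 and 4.79, Mir200b between 4.69 and 5.09 and Mir200c between 5.07 and 5.67, all under the array middle. Between RA and ESC in scrambled cells, uncalled differences ran from -0.17 for Mir141 to 0.14 for Mir200a. Between KD1 and scrambled cells in RA the largest was that of Mir200c (0.36, SE 0.13, adjusted p = 0.121), also not called; with the replicate block 1 of the 5 microRNA genes measured was called higher. Mir205, of another family, fell with RA in scrambled cells (-0.41, SE 0.12, adjusted p = 0.0254) at levels of 4.59 to 5.19, and was not called without ESC Scrambled replicate 2, without RA Scrambled replicate 1 or in the fit to all 12 arrays. Mir429 had no probe set of its own.

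The genes whose log2 values followed each of the 9 most closely over the 12 arrays were named by Pearson's r among 12363 genes, as a description of arrays that share state and line. Snai1 was closest to P4ha2 and Fhdc1 (r = 0.979 for both), and Snai2 to Hsd11b2 (0.990) and Fzd8 (0.989). Zeb1 was closest to Boc (0.989) and Plppr2 (0.984), Zeb2 to Nisch (0.996) and Fbxw4 (0.994), Twist1 to Astn1 (0.987) and Ptn (0.986), and Twist2 to Scara3 (0.989) and Wt1 (0.988). Cdh1 was closest to Ddx58 (0.985) and Pisd (0.981), Cdh11 to Igf1 (0.993) and Edil3 (0.991), and Vim to Syde1 (0.998) and Kirrel (0.995). No gene of the 9 was among the closest pair of another.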

How the data were processed

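RNA of 12 samples was read on a 1-colour Affymetrix gene array, 1 array per sample, from cRNA of 300 ng of total RNA, per the labels. The submitters' processing notes name RMA, without a version, for the deposited log2 signals; the depth of an array has no read count, and the number of arrays limits the precision. Of 35556 probe sets the platform annotation listed 23410, of which 21789 had 1 gene symbol. The brightest of these per gene gave 19938 genes, with RefSeq (GRCm38.p6) for positions and sequences.

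The 9 genes, the lists, the named genes (all 9, the 2 closest genes of each, and up to 4 called list genes each way) and the choice of arrays were made with earlier results of these data known. Scrambled and KD1 were fitted on 8 arrays (4 residual and 4.94 prior degrees of freedom), KD2 on 12 (6 and 2.76) and on 10 (4 and 4.93), with limma 3.58.1 in R 4.3.3, eBayes with an intensity trend, and Benjamini-Hochberg adjustment over all 19938 genes. A call is an adjusted p below 0.05. The script was tested on simulated data. Replicate differences correlated within a state (0.141 to 0.633 over 6 pairs of groups), so a replicate block within each state was fitted as an alternative. Between states the correlations ran from -0.864 to 0.105 over 9 pairs, the lowest between the KD2 groups, which hold the displaced arrays. Between scrambled and KD1 cells the correlation was 0.633 in ESC but 0.150 in RA, so the ground for a block in RA is weak. Figures used matplotlib 3.10.9.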

Additional observations from a re-analysis of the deposited data

Results flagged for a closer look

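The change from ESC to RA differed between KD1 and scrambled cells, by limma's interaction term on 8 arrays, for Snai1 (1.60), Zeb2 (-1.01), Twist1 (-1.49) and Cdh11 (-2.09). In RA the 2 knockdown lines differed from each other, on 10 arrays with 1 KD2 array, for Snai1 (0.89, KD1 minus KD2) and Cdh1 (-0.48). Of the interactions, only that of Snai1 was called with any of the 8 arrays left out. None was called in the fit to all 12 arrays. Neither difference between the knockdown lines was called on 12 arrays, and each call on 10 arrays was lost when certain single arrays were left out. The cause of these differences was not tested.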

How the results depend on the processing

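For RA against ESC in scrambled and KD1 cells, for KD1 against scrambled cells and for the difference of their responses, the directions held for every called gene of the 9 under each alternative run, but calls did not; KD2 is treated apart. In one fit to all 12 arrays, 5 of the 9 genes were called higher and 0 lower in scrambled cells, 1 and 0 in KD1 cells, 0 lower for KD1 in RA, and 0 in either direction for the difference of responses. On 10 arrays, KD2 had 8 called higher and 1 lower with RA, 1 higher than scrambled cells in ESC, and 1 higher and 1 lower for KD1 against KD2 in RA. The cause of these shifts was not tested; the 2 arrays dropped are those that resemble the other state. With 2 arrays per group, the number of arrays limits what can be called.

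The replicate block within each state gave 1 higher and 1 lower for KD1 in ESC and 6 lower for the difference of responses. Together with 10 arrays this block gave 8 higher and 1 lower for KD2 with RA, 1 higher for KD2 in ESC, 1 lower for KD2 in RA, and 1 higher and 3 lower for KD1 against KD2. It moved no other count of calls among the 9 genes by over 1.5 times. Among the lists, for KD1 in RA, it moved inducers and partners from 9 to 19 lower and from 0 to 2 higher, epithelial genes from 1 to 7 higher and 3 to 5 lower, catenins from 0 to 1 lower, neural genes from 0 to 2 lower, stem cell genes from 2 to 4 lower and microRNA genes from 0 to 1 higher. A block shared by both states added a call for Twist2 in the difference of responses (adjusted p = 0.0434).

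Signs turned for these values. From 12 to 10 arrays, the RA change of KD2 became 1.48 for Snai2, 2.33 for Zeb2, 1.84 for Twist1, 1.38 for Twist2, -0.53 for Cdh1 and 0.73 for Vim, and with the block as well 1.39, 2.35, 2.09, 1.28, -0.62 and 0.82. KD2 against scrambled cells turned for Cdh11 in ESC (-0.24) and for Zeb1 (0.03) and Twist2 (0.20) in RA; with the block, it turned in ESC for Cdh1 (0.01) and Cdh11 (-0.16), and in RA for Twist2 (0.06) and Cdh1 (-0.02). KD1 against KD2 in RA turned for Snai2 (-0.08), Zeb1 (-0.39), Zeb2 (-0.72), Twist1 (-0.63), Cdh11 (-1.02) and Vim (-0.12), and with the block to -0.13, -0.35, -0.68, -0.65, -0.82 and -0.12. On 12 arrays Twist2 turned to 0.01 with centred arrays. For KD1 in ESC, Cdh11 turned to -0.02 when quantile normalized again.

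With 1 array left out in turn, KD1 in RA had 1 to 6 genes lower and the difference of responses 0 to 3. On 12 arrays KD2 in RA had 0 to 1 lower, and KD1 against KD2 0 to 1 higher and 0 to 1 lower. On 10 arrays KD2 in ESC had 0 to 2 higher, and KD1 against KD2 0 to 1 higher and 0 to 3 lower. Uncalled differences of KD1 in ESC crossed 0 for Snai1 (-0.42 to 0.04), Cdh11 (-0.22 to 0.33) and Vim (-0.01 to 0.20). On 12 arrays the RA change of KD2 ran from -0.22 to 0.65 for Snai1, -1.46 to 0.70 for Snai2, -0.50 to 0.80 for Zeb1, -1.83 to 1.16 for Zeb2, -1.85 to 0.72 for Twist1, -1.02 to 0.63 for Twist2, -0.28 to 0.39 for Cdh1, -1.96 to 2.59 for Cdh11 and -0.59 to 0.39 for Vim. KD2 against scrambled cells ran from -0.24 to 4.31 for Cdh11 in ESC, and in RA from -1.06 to 0.03 for Zeb1 and -1.46 to 0.20 for Twist2. KD1 against KD2 in RA ran from -0.08 to 1.48 for Snai2, -0.39 to 0.70 for Zeb1, -0.72 to 2.27 for Zeb2, -0.63 to 1.62 for Twist1, -0.83 to 0.82 for Twist2, -1.02 to 2.68 for Cdh11 and -0.12 to 0.86 for Vim. On 10 arrays, KD2 in ESC ran from -0.09 to 0.25 for Zeb1 and -0.09 to 0.06 for Cdh1, KD2 in RA from -0.04 to 0.13 for Cdh1, and KD1 against KD2 from -0.25 to 0.08 for Snai2.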
